A study of Mus musculus with 36 samples.

Results

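Matricellular and elastic fibre genes are described here in RNA libraries of mouse cells that lack MLL3 and either carry or have lost MLL4. The 10 genes were chosen by name, with earlier results of these data known, out of 24284 genes listed in the deposited expression tables. They encode the thrombospondins Thbs1 and Thbs2, the SPARC family proteins Sparc, Sparcl1, Smoc1 and Smoc2, the integrin-binding proteins Npnt and Egfl6, and the elastic fibre proteins Ltbp2 and Fbln2. MLL3 (Kmt2c) and MLL4 (Kmt2d) are histone methyltransferases that place H3K4 monomethylation at enhancers. MLL3-/-;MLL4-/- cells, called DKO, were compared with MLL3-/-;MLL4flox/flox cells, called f/f, so that the deletion of MLL3 was shared by every library, controls included. Each genotype was profiled as embryonic stem cells (ESCs), as embryoid bodies (EBs, aggregates of differentiating ESCs) at day 4 without LIF, as immortalised embryonic fibroblasts (MEFs), and as MEFs at day 20 after lentiviral delivery of the reprogramming factors OSKM (D20). MEF and D20 had 1 library per genotype. ESC and EB had 2 libraries per genotype, 1 from a first set and 1 from a repeat set, and nothing in the labels says that these were separate cultures, so the p-values below measure only the spread between these samples. The labels do not say how many cell lines stood behind a genotype.

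Matricellular proteins are secreted into the extracellular matrix, where they mostly regulate how cells contact that matrix and how growth factors reach their receptors, rather than bearing load themselves. Thrombospondins bind CD36, CD47 and integrins, and Thbs1 can activate latent TGF-beta. SPARC binds collagen and assists collagen assembly, and its relatives share its calcium-binding domain. Elastic fibres consist of an elastin core on a scaffold of fibrillin microfibrils, with fibulins and latent TGF-beta binding proteins attached. Fibroblasts are a main source of most of these proteins.

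Values are deposited RPKM or FPKM, read numbers scaled to transcript length and to the depth of the library, which allow levels to be compared between genes. The reads behind these values numbered 10921242 to 37754363 per FPKM library, and 13250671 to 16280185 per library of the first set, counting 1 transcript per gene. Kmt2d was at 24.8 FPKM in the D20 library labelled DKO against 12.9 FPKM in that labelled f/f, and at 23.5 against 14.4 FPKM in MEF. In EBs it was at 14.3 RPKM and 10.1 FPKM in DKO against 16.4 RPKM and 15.4 FPKM in f/f, and in ESCs at 8.89 RPKM and 10.7 FPKM in DKO against 13.5 RPKM and 18.7 FPKM in f/f. A value over the whole transcript cannot isolate deleted exons, so it checks no label, neither for nor against. In MEF and D20 it was higher in the libraries labelled DKO, and the labels could not be checked otherwise. All MEF and D20 directions below are therefore those of libraries as labelled. Kmt2c was at 3.44 or less in all 12 libraries. The 20 fibroblast markers summed to 12696 FPKM in the D20 library labelled DKO and 16235 FPKM in that labelled f/f, and to 5154 and 6258 FPKM in the MEF libraries labelled DKO and f/f. The 12 markers of pluripotent cells summed to 10.4 FPKM (DKO) and 32.6 FPKM (f/f) at D20 and to 7.45 FPKM (DKO) and 8.28 FPKM (f/f) in MEF. In ESCs of the repeat set they summed to 3054 FPKM (DKO) and 4442 FPKM (f/f). By these lists the D20 libraries had the markers of fibroblasts rather than of reprogrammed pluripotent cells. Zfp42, Sall4, Dppa4, Utf1 and Lin28a were listed at 0 in the D20 library labelled DKO.

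Most of these genes were far lower in the MEF library labelled DKO than in the MEF library labelled f/f. With 1 library per genotype there is no test. A difference is called here when it exceeds 2-fold on log2(FPKM + 1), a scale that understates changes of low genes, and the intervals given are 95% intervals for counting error only. In MEF 6 of the 10 genes were called lower (Thbs2, Smoc1, Smoc2, Npnt, Ltbp2 and Fbln2), 1 was called higher (Egfl6), and Thbs1, Sparc and Sparcl1 were within 2-fold. Of 12281 genes tested, 5.17% were called lower and 3.72% higher. The median log2 difference was -2.81 over the 10 genes and 0.04 over all genes. At D20 7 of the 10 were called lower, the same ones except that Npnt dropped out and Thbs1 and Egfl6 were added, and 1 was called higher (Sparcl1). At D20 10.4% of all genes were called lower and 8.26% higher, and the median was -2.61 over the 10 genes against 0.04 over all genes. Thbs2, Smoc1, Smoc2, Ltbp2 and Fbln2 were thus lower in the library labelled DKO at both stages. The 10 genes were chosen with earlier results of these data known, so the contrasts with all genes are not independent support. All 10 passed the filter on low values, a mean of at least 1 FPKM over the 4 libraries. Sparcl1 passed through its D20 DKO value alone, so it had to differ. Smoc1, at 0.0977 FPKM (D20) and 0.344 FPKM (MEF) in DKO, passed only through its f/f values, so it had to come out lower. The calls of Sparcl1 and Smoc1 are in the counts above but are no support. The fibroblast markers moved in the same direction to a smaller extent: at D20 2 of 20 were called higher and 9 lower (median log2 difference -0.66), and in MEF none was called higher and 6 lower (median -0.24). Their part in the differences of the 10 genes was not tested. Fewer cells of a type and less RNA per cell cannot be told apart in such bulk samples.

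**Figure D1:**
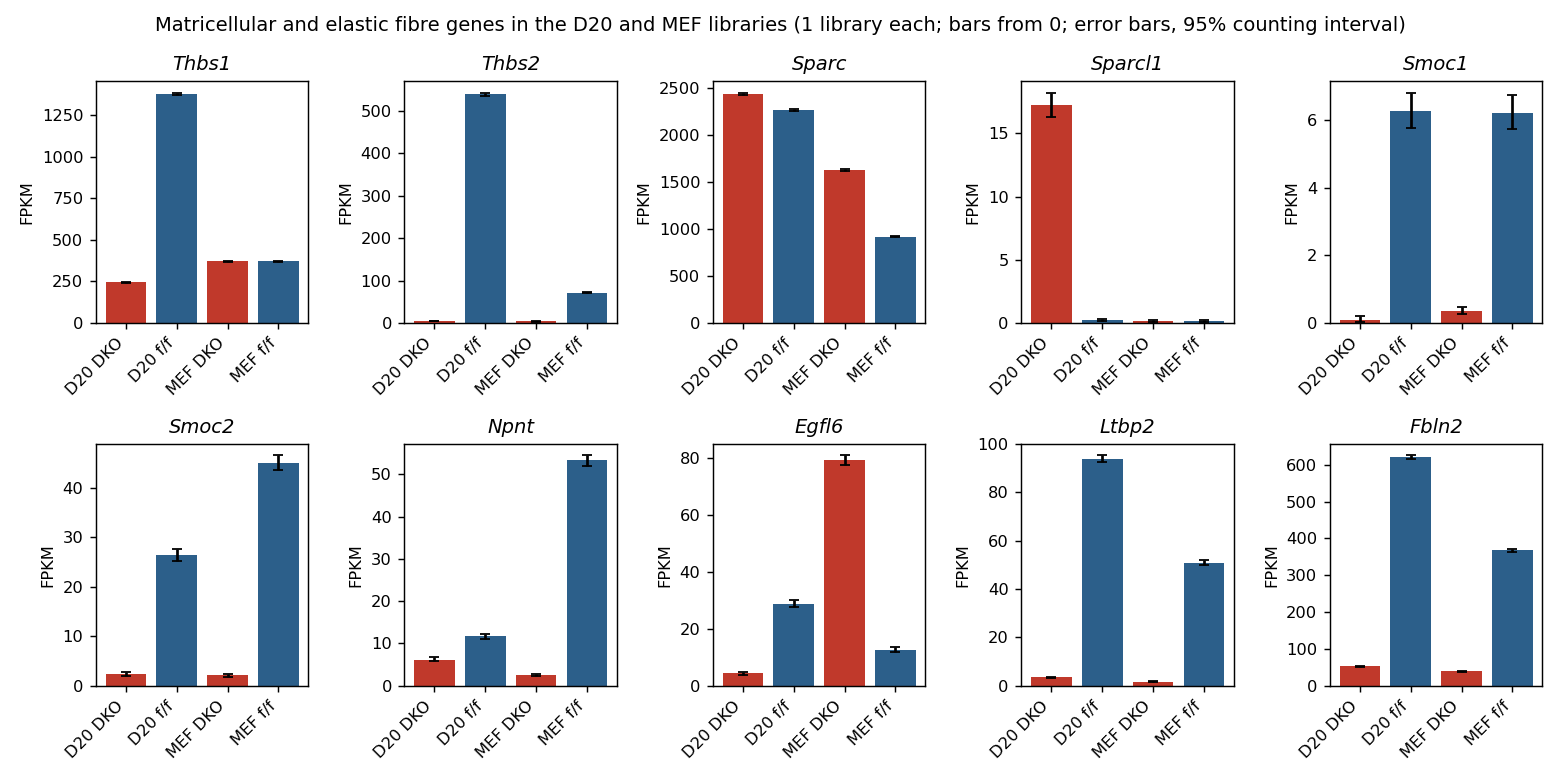
FPKM (vertical axes, from 0) of the 10 genes in the D20 and MEF libraries, 1 library per bar, red for DKO and blue for f/f; error bars are 95% counting intervals. Thbs2, Smoc1, Smoc2, Ltbp2 and Fbln2 have low red bars beside high blue bars at both stages, and Sparcl1 has 1 high bar, the D20 library labelled DKO at 17.2 FPKM.

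Both thrombospondins are large trimeric glycoproteins of similar structure, yet they differed in their patterns. Thbs2 (gene ID 21826, chromosome 17), a regulator of collagen fibril assembly and an inhibitor of angiogenesis, was at 4.39 FPKM in the D20 library labelled DKO against 539 FPKM in that labelled f/f, and at 3.53 against 71.7 FPKM in MEF. The DKO values were low at both stages and lay far below both f/f values. The ratio was 123-fold lower at D20 (interval 113 to 133) and 20.3-fold lower in MEF (18.9 to 21.8), which placed Thbs2 at rank 6 and rank 8 from the lowest log2 difference among 12281 genes. Thbs1 (gene ID 21825, chromosome 2) was at 246 FPKM in the D20 library labelled DKO against 1382 FPKM in that labelled f/f, and at 371 FPKM in both MEF libraries. Thbs1 therefore stood apart in 1 library of the 4, the D20 library labelled f/f, with a value 5.62-fold lower in DKO at D20 (5.55 to 5.68) and a log2 difference of 0.00 in MEF. Per length, Thbs1 exceeded Thbs2 56.1-fold in the D20 library labelled DKO against 2.56-fold in that labelled f/f, and 105-fold against 5.18-fold in MEF.

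Members of the SPARC family did not move together. Sparc (gene ID 20692, chromosome 11), the most abundant of the 10 genes in each of these 4 libraries, was at 2441 FPKM in the D20 library labelled DKO against 2266 FPKM in that labelled f/f, and at 1628 against 920 FPKM in MEF. It ranked 8 and 9 by FPKM among all genes of the D20 libraries labelled DKO and f/f, and 10 and 39 among those of the MEF libraries. Neither difference passed 2-fold, with log2 differences of 0.11 at D20 and 0.82 in MEF. Sparcl1 (hevin, gene ID 13602, chromosome 5), known from the nervous system for its role at synapses, was at 17.2 FPKM from 1258 reads in the D20 library labelled DKO against 0.218 FPKM from 17 reads in that labelled f/f. In MEF it was at 0.126 FPKM (15 reads) in the library labelled DKO against 0.133 FPKM (12 reads) in that labelled f/f. Only the D20 library labelled DKO, among all 12 libraries, had more than 17 reads of Sparcl1. The D20 ratio was 79.1-fold higher in DKO (49.2 to 136), rank 8 from the highest log2 difference of 12281. Sparcl1 passed the filter through the D20 library labelled DKO alone, so this rank is no support. Markers of neural and glial cells summed to 30.0 FPKM in the D20 library labelled DKO and 26.7 FPKM in that labelled f/f, those of endothelial cells to 6.72 and 9.99 FPKM, and those of contractile cells to 2006 and 810 FPKM. Their part in the Sparcl1 value was not tested.

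Smoc1 and Smoc2 are secreted modular calcium-binding proteins of basement membranes, and Smoc1 is known as an antagonist of BMP signalling. Smoc1 (gene ID 64075, chromosome 12) was at 0.0977 FPKM (8 reads) in the D20 library labelled DKO against 6.27 FPKM (548 reads) in that labelled f/f, and at 0.344 FPKM (46 reads) against 6.22 FPKM (629 reads) in MEF. The f/f values were level across the stages, and both DKO values were far below them. The ratios were 64.1-fold lower at D20 (32.3 to 149) and 18.1-fold lower in MEF (13.4 to 24.97). Smoc2 (gene ID 64074, chromosome 17) was at 2.35 FPKM in the D20 library labelled DKO against 26.5 FPKM in that labelled f/f, and at 2.09 against 45.1 FPKM in MEF. Its ratio was 11.3-fold lower at D20 (9.56 to 13.3) and 21.6-fold lower in MEF (18.9 to 24.9), and in both stages the DKO library was the lower.

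The integrin ligands Npnt and Egfl6 differed from each other. Npnt (nephronectin, gene ID 114249, chromosome 3), a basement membrane ligand of integrin alpha-8 beta-1 in kidney development, was at 6.19 FPKM in the D20 library labelled DKO against 11.7 FPKM in that labelled f/f, and at 2.61 against 53.3 FPKM in MEF. The MEF library labelled f/f stood above the other 3, and the difference at D20 was under 2-fold on the log scale (log2 difference -0.82). In MEF the ratio was 20.4-fold lower in DKO (18.6 to 22.5). Egfl6 (gene ID 54156, chromosome X), a secreted protein with EGF-like repeats and an integrin-binding motif, was at 4.41 FPKM in the D20 library labelled DKO against 28.8 FPKM in that labelled f/f, but at 79.1 against 12.7 FPKM in MEF. The direction was thus opposite at the 2 stages: 6.52-fold lower in DKO at D20 (5.75 to 7.42) and 6.26-fold higher in DKO in MEF (5.86 to 6.69). With 1 library each, the difference between the stages was not tested.

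Elastic fibre proteins Ltbp2 and Fbln2 were lower in the library labelled DKO by similar factors at both stages. Ltbp2 (gene ID 16997, chromosome 12), a fibrillin-binding protein that, unlike other latent TGF-beta binding proteins, does not bind latent TGF-beta, was at 3.47 FPKM in the D20 library labelled DKO against 93.9 FPKM in that labelled f/f. In MEF it was at 1.58 against 50.8 FPKM. It was 27.02-fold lower at D20 (24.8 to 29.5) and 32.3-fold lower in MEF (29.2 to 35.8), and its MEF difference had rank 4 from the lowest of 12281 genes. Fbln2 (fibulin-2, gene ID 14115, chromosome 6), which links fibrillin, elastin and basement membrane proteins, was at 52.6 FPKM in the D20 library labelled DKO against 621 FPKM in that labelled f/f, and at 39.2 against 368 FPKM in MEF. The ratio was 11.8-fold lower at D20 (11.5 to 12.1) and 9.38-fold lower in MEF (9.15 to 9.63). In the libraries labelled DKO, Fbln2 rested on 5512 reads at D20 and 6712 reads in MEF, and Ltbp2 on 537 and 398 reads.

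**Figure D2:**
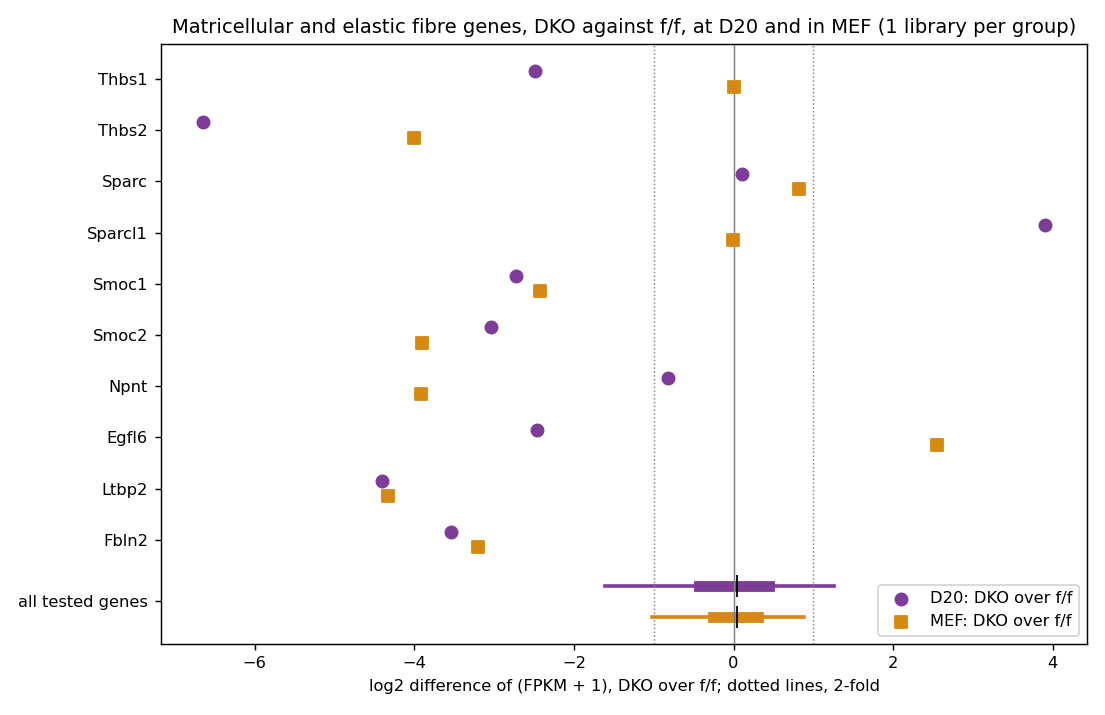
Log2 difference of FPKM + 1, DKO over f/f (horizontal axis), for the 10 genes at D20 (purple circles) and in MEF (orange squares), with all tested genes below (thick bar, middle 50%; thin line, 5th to 95th percentile; tick, median). Ltbp2, Fbln2, Smoc1, Smoc2 and Thbs2 lie left of the 2-fold line at both stages, and Egfl6 lies at -2.46 at D20 and 2.55 in MEF.

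Promoter sequences are shown for 4 genes that were lower in the MEF library labelled DKO and, as a contrast, for Sparc, which passed 2-fold at neither stage. RefSeq promoter sequences (GRCm38.p6) were at hand for 6 of the 10 genes, not for Thbs1, Sparcl1, Smoc1 or Smoc2. Each sequence below is the 250 bases before the annotated start, 5′ to 3′ on the gene's strand, with motif matches in capitals. The windows are chr17:14694263-14694512, minus strand, for Thbs2, chr12:84876492-84876741, minus strand, for Ltbp2, chr6:91212514-91212763, plus strand, for Fbln2, chr3:132950292-132950541, minus strand, for the first of 2 Npnt starts, and chr11:55420081-55420330, minus strand, for Sparc.
Thbs2: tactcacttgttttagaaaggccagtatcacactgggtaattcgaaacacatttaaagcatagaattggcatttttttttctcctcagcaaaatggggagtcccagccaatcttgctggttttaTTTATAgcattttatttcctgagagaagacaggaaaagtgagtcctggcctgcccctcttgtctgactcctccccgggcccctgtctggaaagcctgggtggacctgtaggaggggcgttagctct
Ltbp2: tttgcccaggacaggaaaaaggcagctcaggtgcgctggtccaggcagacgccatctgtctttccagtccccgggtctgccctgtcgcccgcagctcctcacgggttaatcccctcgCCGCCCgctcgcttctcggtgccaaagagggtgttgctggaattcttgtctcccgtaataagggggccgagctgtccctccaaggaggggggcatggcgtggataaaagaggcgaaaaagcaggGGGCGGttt
Fbln2: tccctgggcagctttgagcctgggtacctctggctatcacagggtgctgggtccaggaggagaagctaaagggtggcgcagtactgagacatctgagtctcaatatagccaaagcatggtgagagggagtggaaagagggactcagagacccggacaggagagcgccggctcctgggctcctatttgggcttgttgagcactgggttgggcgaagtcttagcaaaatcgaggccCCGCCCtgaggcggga
Npnt: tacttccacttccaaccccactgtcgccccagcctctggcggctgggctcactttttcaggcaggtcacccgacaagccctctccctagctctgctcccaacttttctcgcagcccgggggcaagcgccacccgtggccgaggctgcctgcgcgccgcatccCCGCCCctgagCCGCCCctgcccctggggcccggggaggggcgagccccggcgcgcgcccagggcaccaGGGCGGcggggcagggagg
Sparc: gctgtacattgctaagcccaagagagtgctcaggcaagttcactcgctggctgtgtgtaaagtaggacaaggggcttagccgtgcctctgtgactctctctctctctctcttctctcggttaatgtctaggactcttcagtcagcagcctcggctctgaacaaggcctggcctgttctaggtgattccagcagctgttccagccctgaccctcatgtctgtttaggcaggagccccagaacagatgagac
Matches were searched on both strands for the Sp1 box GGGCGG, the TATA box TATAAA, and the letters GGAATG (TEAD), TGANTCA (AP-1), TGTGGT (RUNX), TGACGTCA (CRE) and GTCTAGAC (SMAD). These motifs do not overlap one another in the windows shown. Npnt held 3 Sp1 boxes, Ltbp2 2 and Fbln2 1, while 32.7% of 32851 RefSeq promoters hold at least 1. Thbs2 held 1 TATA box, read on the reverse strand 121 to 126 bases before the start, against 12.4% of promoters. Sparc held none of the 7 motifs. The remaining motifs, present in 12.6% (TEAD), 6.75% (AP-1), 14.0% (RUNX), 1.55% (CRE) and 0.167% (SMAD) of promoters, had no match in these 5 windows. GC content was 74.0% for Npnt, 61.6% for Ltbp2, 58.8% for Fbln2, 54.0% for Sparc and 46.8% for Thbs2, against a median of 52.4%. No motif of this search was found in all 4 genes that were lower in MEF. Windows not shown were those of the second Npnt start, with no match, and of Egfl6. Egfl6, called higher in the MEF library labelled DKO, also held an Sp1 box, at a GC content of 64.8%. An Sp1 box was thus not confined to genes lower in MEF.

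The second question was how the genes differed between D20 and MEF, and whether that difference was alike in both genotypes. These comparisons use the same 4 libraries as those above and are not independent of them. In DKO, 1 of the 10 genes was called higher at D20 (Sparcl1) and 1 lower (Egfl6), where 4.08% of all genes were called higher and 3.63% lower. In f/f, 4 were called higher (Thbs1, Thbs2, Sparc and Egfl6) and 1 lower (Npnt), where 6.31% were called higher and 5.66% lower. With a pseudocount of 0.1 in place of 1, 5 were called in DKO, since Npnt, Ltbp2 and Smoc1 then also passed. The median log2 difference of the 10 genes was 0.33 in DKO and 0.81 in f/f, against -0.02 and -0.01 over all genes. For the difference between the genotypes' D20 over MEF values, 2 of the 10 were past 2-fold upward and 3 downward, against 6.32% and 7.77% of all genes. Of the 20 fibroblast markers, 6 were called higher at D20 and 2 lower in DKO, against 13 higher and none lower in f/f. The part of those markers in the values of the 10 genes was not tested.

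Thbs2 was 1.24-fold higher at D20 than in MEF in DKO (1.12 to 1.38) and 7.52-fold higher in f/f (7.38 to 7.67). Thbs1 was 1.51-fold lower in DKO (1.49 to 1.53) and 3.72-fold higher in f/f (3.69 to 3.76), so its direction differed between the genotypes. Sparc was higher at D20 in both, 1.50-fold in DKO and 2.46-fold in f/f. Sparcl1 was 137-fold higher at D20 in DKO (82.8 to 246), rank 2 from the highest of 12281 genes. That D20 value alone took Sparcl1 past the filter. In f/f its ratio of 1.64 had a counting interval of 0.737 to 3.76 that included no difference. Egfl6 was 17.9-fold lower at D20 in DKO (15.9 to 20.3), rank 3 from the lowest, and 2.27-fold higher in f/f (2.11 to 2.46). Npnt was 2.37-fold higher in DKO (2.11 to 2.67), just under the threshold at a log2 difference of 1.00, and 4.57-fold lower in f/f (4.31 to 4.84). Ltbp2 and Fbln2 were below the threshold in both genotypes, with Ltbp2 at 2.21-fold in DKO and 1.85-fold in f/f and Fbln2 at 1.34-fold in DKO and 1.69-fold in f/f. For this pair the log2 change in DKO minus that in f/f was small, -0.07 for Ltbp2 and -0.34 for Fbln2. Smoc2 was 1.13-fold higher in DKO, with an interval of 0.914 to 1.39, and 1.70-fold lower in f/f. Smoc1 was 3.52-fold lower in DKO on 8 and 46 reads (1.64 to 8.63), and in f/f its ratio was 1.01 (0.897 to 1.13).

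**Figure D3:**
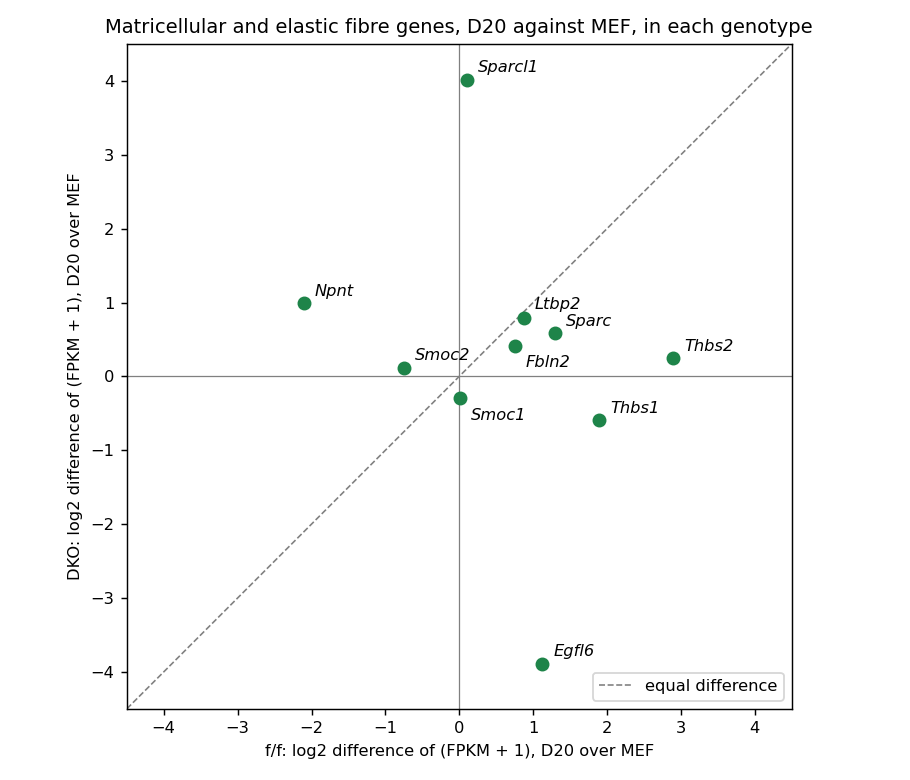
Log2 difference of FPKM + 1, D20 over MEF, in f/f (horizontal axis) and in DKO (vertical axis), 1 point per gene; the dashed line marks equal differences. Ltbp2 lies next to the line, Sparcl1 far above it at 4.02 in DKO, and Egfl6 far below it at -3.89 in DKO and 1.12 in f/f.

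Other genes of the same pathways were followed in 4 lists. Of 15 tested genes among 22 other matricellular genes, at D20 5 were called higher in the library labelled DKO and 5 lower, and in MEF 3 higher and 5 lower. The higher ones included Ccn1 (log2 difference 3.22), Spock2 (2.36) and Tnc (2.11) at D20, and Tnc (1.90), Spock2 (1.77) and Ccn4 (1.54) in MEF. The lower ones included Ccn5 (-6.34), Spp1 (-4.35) and Spock3 (-4.03) at D20, and Ccn2 (-3.09), Ccn3 (-2.99) and Spp1 (-2.70) in MEF. Spp1 encodes osteopontin and Tnc tenascin-C, so the list went in both directions, and its median was -0.01 at D20 and -0.36 in MEF. Of 22 tested among 23 elastic fibre and microfibril genes, 1 was called higher and 10 lower at D20 (median -0.90), where 8.26% of all genes were called higher and 10.4% lower. In MEF 3 were called higher and 4 lower (median -0.12), where 3.72% of all genes were called higher and 5.17% lower. The microfibril-associated genes Mfap4 (-5.55) and Mfap5 (-4.09) and the lysyl oxidase Loxl4 (-3.07) led those lower at D20, and Emilin2 (1.09) was higher. In the D20 library labelled DKO, Mfap4 was at 0.480, Mfap5 at 0.0606, Ccn5 at 0.553 and Spock3 at 0.469 FPKM. These genes passed the filter only through f/f values, so their calls are in the counts but are no support. In MEF Mfap4 (-1.87), Loxl2 (-1.63) and Loxl4 (-1.22) led those lower, and Ltbp4 (1.23), Hmcn1 (1.20) and Fbn2 (1.13) those higher. Of these lists, the first shares Postn and the second Fbn1, Lox and Mfap5 with the fibroblast markers.

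Receptors for these proteins showed no common direction. Of 16 tested among 18, 4 were called higher and 5 lower at D20, and 3 higher and 1 lower in MEF. Of all genes, 8.26% were called higher and 10.4% lower at D20, and 3.72% higher and 5.17% lower in MEF. The integrin chain Itga3 was lower in the library labelled DKO at both stages (log2 difference -2.10 at D20 and -4.12 in MEF), and the integrin chain Itga4 (1.36 and 2.09) and the thrombospondin receptor Cd47 (1.14 and 1.00) were higher at both. Itga3 passed the filter only through f/f values and Itga4 only through DKO values, so the calls of these genes are no support. Scarb1 (1.93) was also higher at D20 and Itga8 (1.54), the alpha chain of the Npnt receptor, in MEF, and Cacna2d1 (-1.34) and Lrp1 (-1.19) were lower at D20. Among 18 TGF-beta ligands, receptors and targets, 3 were called higher and 5 lower at D20, and 1 was called higher and none lower in MEF. They included Nog (1.98) and Smad7 (1.21) higher and Eng (-2.50), Tgfbr3 (-1.45) and Tgfbr2 (-1.43) lower at D20, and Nog (1.44) higher in MEF. Nog passed the filter only through DKO values and Eng only through f/f values, so the calls of Nog and Eng are no support. Between D20 and MEF, 4.08% of all genes were called higher and 3.63% lower in DKO, against 6.31% and 5.66% in f/f. Elastic fibre genes were called higher in 2 and lower in 4 cases in DKO, against 10 higher and none lower in f/f. In DKO these were led by Fbln1 (1.19) and Ltbp4 (1.15) upward and Fbln5 (-1.90), Loxl4 (-1.28) and Emilin1 (-1.17) downward, and in f/f by Mfap5 (3.83), Mfap4 (3.62) and Fbn2 (3.20) upward. Of the other matricellular genes, 4 were higher at D20 and none lower in DKO, led by Ccn2 (2.31), Ccn1 (1.86) and Tgfbi (1.72). In f/f 6 were higher, led by Ccn5 (3.82), Spock3 (3.43) and Spp1 (3.01), and 3 lower, Ccn2 (-2.48), Ccn1 (-1.81) and Ccn3 (-1.67). Ccn1 and Ccn2 thus had opposite signs in the 2 genotypes, a difference that was not tested. Receptor genes had none past 2-fold in DKO, while Itga6 (1.13) and Cacna2d1 (1.11) were higher and Itga3 (-2.42) lower in f/f. In the TGF-beta list Inhba (1.21) and Tgfb1 (1.06) were higher in DKO, and Eng (2.23) and Tgfbr3 (1.37) in f/f. Mfap5, Spock3 and Eng passed the filter only through the D20 library labelled f/f, so their higher D20 values in f/f are no support.

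In EBs and ESCs the genes were tested with limma on log2(value + 1) over 8 libraries, with the set as a term, a mean of at least 1 as filter and Benjamini-Hochberg adjustment over 12462 genes. Of the 10 genes, 7 passed the filter, and Sparcl1, Smoc2 and Egfl6 did not. Sparcl1 stayed between 0.0488 and 0.405, Smoc2 between 0.134 and 0.901, and Egfl6 between 0.282 and 0.912 in these 8 libraries. DKO differed from f/f in 1 of the 7 in EBs, where Sparc fell, and in 1 of the 7 in ESCs, where Smoc1 fell. Of all genes, 3.61% fell and 0.827% rose in EBs, and 2.67% fell and 1.57% rose in ESCs, so 1 of 7 genes is not a result about this set.

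**Figure D4:**
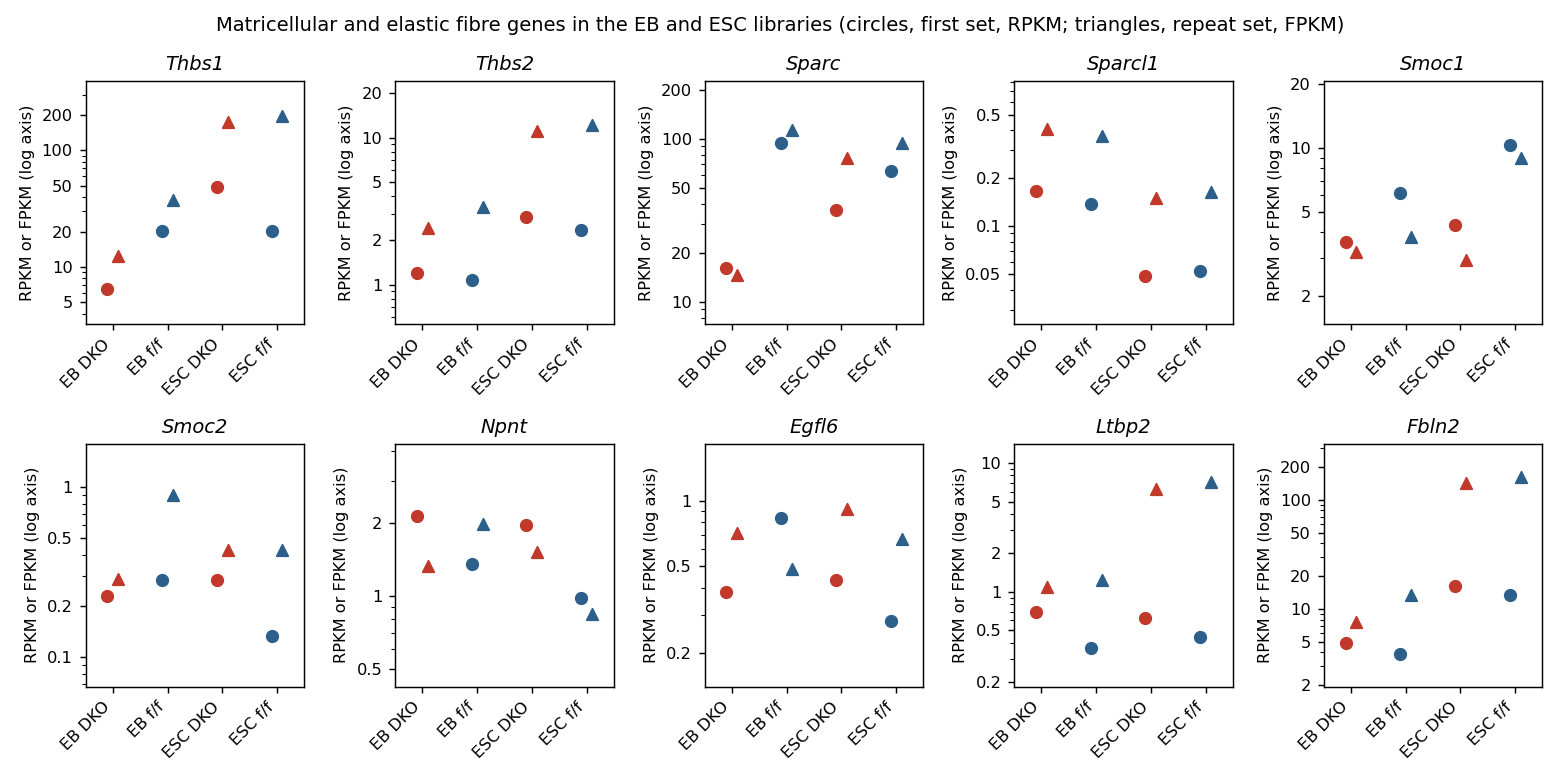
Values of the 10 genes in the EB and ESC libraries on log axes (RPKM for the first set, circles; FPKM for the repeat set, triangles), red for DKO and blue for f/f. Sparc is lowest in both DKO EB libraries, at 16.2 RPKM and 14.6 FPKM, and Smoc1 is highest in both f/f ESC libraries, at 10.4 RPKM and 8.95 FPKM.

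Sparc was at 16.2 RPKM (first set) and 14.6 FPKM (repeat set) in DKO EBs, against 94.1 RPKM and 113 FPKM in f/f EBs. In ESCs it was at 36.7 RPKM and 76.7 FPKM in DKO, against 63.6 RPKM and 94.2 FPKM in f/f. In each set the DKO EB library was the lowest, and the DKO ESC library lay below that of f/f. The ESC genotypes overlapped between the sets, whose units differ. In EBs the log2 difference was -2.67 ± 0.26 (SE, n = 2 libraries per genotype; limma adjusted p = 0.00921), a 6.37-fold fall on this scale, with -2.47 in the first set and -2.87 in the repeat set. Without the first or the repeat f/f EB library the adjusted p was 0.0766 or 0.0915, so the call needs both. It was also lost without the filter on low values (0.111) and without the block for the set (0.104). In ESCs it was -0.53 ± 0.26 (limma adjusted p = 0.297). The genotype difference in EBs minus that in ESCs was -2.14 ± 0.37, which did not pass (limma adjusted p = 0.119). Epithelial markers summed to 231 RPKM and 328 FPKM in DKO EBs against 968 RPKM and 1270 FPKM in f/f EBs, with none of 15 called higher and 7 lower. The fibroblast markers summed to 78.3 RPKM and 139 FPKM against 148 RPKM and 245 FPKM, with none of 17 tested higher and 1 lower, and of 11 tested endoderm markers none was higher and 4 were lower. Contractile markers summed to 67.3 RPKM and 114 FPKM in DKO EBs against 485 RPKM and 582 FPKM in f/f EBs, with none of 8 tested higher and 4 lower (median log2 difference -1.70). Of all genes in EBs, 3.61% were called lower and 0.827% higher, and the 1 of 17 fibroblast markers is close to that share. The part of these marker lists in the fall of Sparc was not tested.

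Smoc1 was at 4.33 RPKM and 2.94 FPKM in DKO ESCs, against 10.4 RPKM and 8.95 FPKM in f/f ESCs. In EBs it was at 3.57 RPKM and 3.23 FPKM in DKO, against 6.09 RPKM and 3.77 FPKM in f/f. Every DKO library lay below the f/f library of its set and stage. In ESCs the log2 difference was -1.21 ± 0.17 (SE, n = 2 libraries per genotype; limma adjusted p = 0.0208), with -1.09 in the first set and -1.34 in the repeat set. The call was lost when any 1 of the 4 ESC libraries was left out. The adjusted p was then 0.120 or 0.143 without the first or the repeat DKO library, and 0.127 or 0.161 without the first or the repeat f/f library, 0.103 without the filter on low values and 0.210 without the block. In EBs the difference was -0.40 ± 0.17 (limma adjusted p = 0.238), and the difference between the stages did not pass (0.81, limma adjusted p = 0.236). Smoc1 was the gene of the 10 that was lower in DKO at all 4 stages by its level, in each of the 6 pairs of libraries.

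Thbs1 was at 6.51 RPKM and 12.5 FPKM in DKO EBs, against 20.5 RPKM and 37.8 FPKM in f/f EBs. In ESCs it was at 48.5 RPKM and 176 FPKM in DKO, against 20.3 RPKM and 196 FPKM in f/f. The DKO library was the lower of its pair in both EB sets, while the ESC pairs pointed in opposite directions. In EBs the log2 difference of -1.52 ± 0.56 did not pass (SE, n = 2 libraries per genotype; limma adjusted p = 0.189), while DESeq2 called it (-1.61, adjusted p = 0.0114). Fbln2 was at 4.93 RPKM and 7.68 FPKM in DKO EBs against 3.88 RPKM and 13.6 FPKM in f/f EBs, and at 16.2 RPKM and 143 FPKM in DKO ESCs against 13.6 RPKM and 164 FPKM in f/f ESCs. Its DKO value was the higher in the first set and the lower in the repeat set at both stages, and so was that of Ltbp2 and of Thbs2. Ltbp2 lay between 0.365 and 7.06 and Thbs2 between 1.08 and 12.1 in these libraries, and none of the 3 genes had a genotype difference that passed (limma adjusted p between 0.854 and 0.996). Npnt was at 2.14 RPKM and 1.33 FPKM in DKO EBs against 1.36 RPKM and 2.00 FPKM in f/f EBs, and at 1.97 RPKM and 1.52 FPKM in DKO ESCs against 0.977 RPKM and 0.840 FPKM in f/f ESCs. The ESC values of DKO were above those of f/f in both sets, but the difference of 0.52 ± 0.22 did not pass (limma adjusted p = 0.243).

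Between EBs and ESCs, 1 of the 7 genes passed in f/f, where Smoc1 was lower in EBs (-0.87 ± 0.17, SE, n = 2 libraries per stage; limma adjusted p = 0.0282), against 3.86% of all genes lower and 8.14% higher. This call was lost without any 1 of 5 libraries. The limma adjusted p was 0.0819 or 0.202 without the first or the repeat f/f EB library, 0.0973 or 0.196 without the first or the repeat f/f ESC library, and 0.0517 without the first DKO ESC library. In f/f edgeR also called Thbs2 and Fbln2 lower (adjusted p = 0.0251 and 0.0444), and DESeq2 called these and Thbs1. In DKO none of the 7 passed in limma, where 0.626% of all genes were lower and 0.201% higher. At an unadjusted p under 0.05 there were 4, Thbs1, Thbs2, Sparc and Fbln2, and after adjustment edgeR called 1 and DESeq2 4. Thbs1 in EBs differed from ESCs by -3.22 ± 0.56 in DKO (limma adjusted p = 0.0663) and -1.16 ± 0.56 in f/f (0.206). The f/f difference of Thbs1 was 0.02 in the first set and -2.35 in the repeat set. Fbln2 differed by -2.80 ± 0.67 in DKO (limma adjusted p = 0.112) and -2.54 ± 0.67 in f/f (0.0585). Sparc differed by -1.73 ± 0.26 in DKO (0.0508) and 0.41 ± 0.26 in f/f (0.323). Without the first DKO EB library the DKO value of Sparc passed (limma adjusted p = 0.0424), and without the repeat f/f ESC library that of Thbs1 passed (0.0499). In f/f, Thbs2 passed without the first or the repeat DKO EB library (limma adjusted p = 0.0380 or 0.0385), as did Fbln2 (0.0271 in either case). The genotype difference in EBs minus that in ESCs passed for none of the 7 and for 0% of all genes in limma. At an unadjusted p under 0.05 there were 3 of the 7 and 1704 of all genes, and edgeR called none of the 7 and no other gene, while DESeq2 called 1 (Sparc) and 420.

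Per the labels, ESCs were kept on irradiated fibroblast feeders and EBs grew in suspension. The fibroblast markers summed to 178 RPKM and 640 FPKM in DKO ESCs and to 144 RPKM and 699 FPKM in f/f ESCs. Relative to the ESC library of the same set, the EB sum was 44.0% and 21.8% in DKO, and 103% and 35.0% in f/f. Fbln2, Thbs1, Thbs2 and Ltbp2 likewise had much larger values in the repeat set of ESCs than in the first. These set FPKM against RPKM, and levels are comparable only within a set. Expressed as a share of the MEF library labelled f/f, the fibroblast sum of the repeat ESC libraries was 10.2% in DKO and 11.2% in f/f. That of Thbs1 was 47.4% and 52.9%, of Fbln2 39.0% and 44.5%, of Thbs2 15.4% and 16.9%, of Ltbp2 12.3% and 13.9%, and of Sparc 8.34% and 10.2%. Smoc2 was at 0.94% in both, and Npnt at 2.85% and 1.58%. Smoc1 was at 47.2% in DKO and 144% in f/f. The MEF and D20 tables were scaled separately from the repeat ESC and EB tables, which limits such shares, and the part of feeder cells in the ESC values was not tested.

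In each of the 4 pathway lists, 2 genes fell and none rose in DKO EBs, where 3.61% of all genes fell. Of 11 tested other matricellular genes, 2 fell in DKO EBs, Ccn1 (log2 difference -2.16, limma adjusted p = 0.0323) and Ccn2 (-1.44, 0.0299). The median of the 11 was -0.53 and of all genes -0.01, 5 had an unadjusted p under 0.05, and edgeR called 2 and DESeq2 5. None passed in ESCs, where 2 had an unadjusted p under 0.05, edgeR called none and DESeq2 called 1. Of 17 elastic fibre genes, 2 fell in DKO EBs, Efemp1 (-1.55, limma adjusted p = 0.0355) and Mfap4 (-1.28, 0.0373), with 3 at an unadjusted p under 0.05, 1 called by edgeR and 3 by DESeq2. None passed in ESCs, with 3 at an unadjusted p under 0.05, none called by edgeR and 2 by DESeq2. Of 14 receptors, Itga3 (-1.85, limma adjusted p = 0.00885) and Itgb5 (-1.19, 0.0244) fell in DKO EBs, with 4 at an unadjusted p under 0.05, 2 called by edgeR and 3 by DESeq2. In DKO ESCs Itga3 rose (0.85, limma adjusted p = 0.0423) and Itgb5 fell (-0.91, 0.0488). Of 16 TGF-beta genes, Tgfb1 (-1.76, limma adjusted p = 0.0135) and Tgfbr3 (-1.02, 0.0321) fell in DKO EBs, with 4 at an unadjusted p under 0.05, 2 called by edgeR and 3 by DESeq2. None passed in ESCs, with 3 at an unadjusted p under 0.05, none called by edgeR and 2 by DESeq2. The percentages of all genes called are those given above for the same comparisons.

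Between EBs and ESCs, Ccn2 (-3.03, limma adjusted p = 0.0173) and Ccn1 (-2.72, 0.0431) were lower in DKO EBs. In f/f EBs Tnc (-2.83, limma adjusted p = 0.0301) and Ccn2 (-1.55, 0.0188) were lower and Spock2 (0.96, 0.0240) higher. Itga3 was higher in f/f EBs (1.65, limma adjusted p = 0.0135), as were Tgfbr3 (1.18, 0.0177), Tgfb1 (1.04, 0.0314) and Smad3 (1.03, 0.0268), the 3 largest of 5 TGF-beta genes that rose, while Eng fell (-0.82, 0.0374). In DKO none of the elastic fibre, receptor or TGF-beta genes passed in limma, although 8, 2 and 7 had an unadjusted p under 0.05. edgeR called 0, 1 and 0 of them and DESeq2 4, 2 and 2. None of the 17 elastic fibre genes passed in f/f either, with 8 at an unadjusted p under 0.05, 2 called by edgeR and 3 by DESeq2.

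Across the 8 FPKM libraries, 9 of the 10 genes had their highest level in a MEF or D20 library. MEF and D20 make up 4 of these 8 libraries, and their tables were scaled separately from the others. The share of all genes highest there was not counted, so the 9 are no result about this set. Thbs1, Thbs2, Ltbp2 and Fbln2 were highest in the D20 library labelled f/f, Smoc2 and Npnt in the MEF library labelled f/f, Egfl6 in the MEF library labelled DKO, and Sparc and Sparcl1 in the D20 library labelled DKO. Smoc1 was highest in the f/f ESC library. The highest value exceeded the lowest by 63.4-fold (Npnt) to 221-fold (Thbs2). With 1 library per group on this scale, the spread between neighbours in these orders is known only as counting error. Counting intervals overlapped for 25 of the 70 neighbouring pairs, among them both MEF libraries for Thbs1, the D20 and MEF libraries labelled f/f for Smoc1 and those labelled DKO for Smoc2. All 6 pairs of Sparcl1 below its highest value overlapped, while Sparc and Fbln2 had no overlapping neighbours. Thbs2, Ltbp2 and Fbln2 had the same descending order: the D20 and MEF libraries labelled f/f, then the f/f and DKO ESC libraries, then the D20 and MEF libraries labelled DKO, then the f/f and DKO EB libraries. Of the 7 steps in this order, the counting intervals overlapped at 2 for Thbs2 and at 3 for Ltbp2, so those steps are not resolved.

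The genes with the most similar pattern were sought by the Pearson correlation of log2(FPKM + 1) over the 8 FPKM libraries, among 12970 genes. These points share their genotype, stage and set, and the correlations are descriptions. For the thrombospondins they were Hspg2 (0.97) and Ccdc80 (0.96) with Thbs1 and Ptplad2 and Ly6c1 (0.99 each) with Thbs2. Sparc was most like Col5a1 and Rhoc (0.99 each), and Sparcl1 most like Aoc2 (0.99) and Gria4 (0.97). Outside the D20 library labelled DKO, Sparcl1 was at 0.405 FPKM or less, so its correlations rest largely on that library. Smoc1 was most like Ei24 (0.96) and Msra (0.94), and Smoc2 most like Foxc2 and C630043F03Rik (0.99 each). Npnt was most like Trpm7 and Serpinb8 (0.98 each), and Egfl6 most like Pde7b (0.99) and Chst2 (0.98). Ltbp2 was most like Baiap2 (0.99) and Tns1 (0.98), and Fbln2 most like Nfkb1 (0.98) and Nr1d2 (0.96). From 22 (Fbln2) to 820 (Sparc) genes had a correlation over 0.9, so the named genes are only the first of many. Among the 10 genes themselves the closest pair was Thbs2 with Ltbp2 (0.97), followed by Smoc2 with Npnt (0.95) and Ltbp2 with Fbln2 (0.92). The pair furthest apart was Sparcl1 with Smoc1 (-0.64), which again rests largely on the D20 library labelled DKO.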

How the data were processed

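Polyadenylated RNA was sequenced from 12 libraries with an Illumina TruSeq kit, per the labels' protocols. The other 24 samples of the series (ChIP and input) were not analysed here. For the 4 libraries of the first ESC and EB set the authors deposited read counts and RPKM per RefSeq transcript, and for the other 8 FPKM per gene. The submitters' processing notes name mm9, bedtools 2.16, CASAVA 1.8.2 and SICER 1.1 with no role. The aligner is not given in the sources used here. The most-read transcript stood for a gene. Fbln2, Npnt and Smoc1 have 2 transcripts with nearly identical counts. Older gene symbols in the files were matched through RefSeq synonyms.

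FPKM values were whole multiples of a step for 90.5% to 92.2% of low genes (within 0.02 reads), from which reads per gene and library were recovered. The FPKM denominators of the 4 MEF and D20 libraries were proportional to the median-of-ratios size factors of their reads, and those of the repeat ESC and EB libraries were not. The tables were thus scaled separately, and levels across them are descriptions.

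ESC and EB libraries were tested with limma 3.58.1 (R 4.3.3) on log2(value + 1) with genotype by stage groups and the set (first or repeat) as a block, a mean of at least 1, and an adjusted p under 0.05. The pairing comes from the titles of the repeat set. Libraries of the same set deviated together, with correlations of 0.864 to 0.954 across genes between groups. The fit was also run on simulated reads with the same fixed spread for every gene and no genotype effect that differed between sets. That run therefore does not show how the fit performs on these data. MEF and D20, with 1 library per group, were compared by a 2-fold difference of log2(FPKM + 1), with exact 95% intervals for counting error. Alternatives were another pseudocount (0.1), no filter, median-of-ratios scaling, no block, edgeR 4.0.16 and DESeq2 1.42.0 on counts and recovered reads, a 4-fold threshold, and leaving out each replicate. Scaling by summed reads was added after seeing the data.

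The 10 genes and the gene lists were chosen with earlier results of these data known. The text names all 10 genes, Kmt2d and Kmt2c, up to 3 increases and 3 decreases per pathway list and comparison, and the 2 most similar genes of each. One item that this rule names is not reported here. Counts of lists are read beside the percentage of all genes called.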

Additional observations from a re-analysis of the deposited data

Results flagged for a closer look

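4 values were singled out because the 2 groups moved in opposite directions in every library, beyond counting error. With 1 library per group none of these differences was tested. Egfl6 had a genotype difference, DKO over f/f, of -2.46 on the log2(FPKM + 1) scale at D20 and 2.55 in MEF. Its D20 over MEF difference was -3.89 in DKO and 1.12 in f/f. Thbs1 had a D20 over MEF difference of -0.59 in DKO and 1.89 in f/f. Npnt had a D20 over MEF difference of 1.00 in DKO and -2.10 in f/f. The 2 Egfl6 values and all D20 over MEF values come from the same 4 libraries, so they are not independent of one another. No group held the 4 or more libraries needed to look for a library far from the others.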

How the results depend on the processing

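No called result changed sign under any alternative run, while Thbs1 in MEF, at a log2 difference of 0.00, was at -0.07 when scaled by summed reads. Of the single-gene values 650 kept their side of the threshold or stayed close, 22 newly passed, 17 no longer passed and 36 moved beyond counting error. The counts in EBs and ESCs depended on the processing. DKO against f/f in EBs gave 553 genes and 1 of the 10. This became 23 genes and 0 of the 10 without the filter on low values, 2 and 0 with no replicate block, and 1268 and 2 with DESeq2. In ESCs 529 genes and 1 of the 10 became 0 and 0 without the filter, 0 and 0 with no replicate block, and 1375 genes with DESeq2. EB against ESC in DKO gave 103 genes and 0 of the 10, against 15 genes without the filter, 1 gene with no replicate block, and 886 genes and 4 of the 10 with DESeq2. A pseudocount of 0.1, median-of-ratios scaling or edgeR each gave 1 of the 10. In f/f, 1495 genes and 1 of the 10 became 14 and 0 without the filter, 0 and 0 with no replicate block, and 2474 and 4 with DESeq2. There 2 of the 10 passed with a pseudocount of 0.1 or median-of-ratios scaling and 3 with edgeR. The difference between the stages' genotype differences, 0 genes, became 4 without the filter and, with DESeq2, 420 genes and 1 of the 10. The cause of these changes was not tested. Leaving out each library in turn gave 0 to 799 genes and 0 to 1 of the 10 for DKO against f/f in EBs, 0 to 742 and 0 to 1 in ESCs, 0 to 111 and 0 to 1 for EB against ESC in DKO, 0 to 1887 and 0 to 3 in f/f, and 0 for the difference between the stages. With 1 library per group, a 4-fold threshold by its construction lowered the counts, to 585 genes for DKO against f/f at D20, 213 in MEF, 99 for D20 over MEF in DKO, 330 in f/f with 2 of the 10, and 430 for the difference between the genotypes. A pseudocount of 0.1 gave 1506 genes and 5 of the 10 for D20 over MEF in DKO. Scaling by summed reads moved the median of all genes by -0.06 to -0.08 in the 4 comparisons. The smallest values, 8 reads of Smoc1 and 3 to 17 reads of Sparcl1, limit what those libraries can show.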

Other observations

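Markers of epithelial cells, which no comparison above needed outside EBs, were nearly absent from the D20 library labelled DKO, at a summed 0.761 FPKM with 8 of 15 markers listed at 0, against 55.5 FPKM in that labelled f/f. In MEF they summed to 0.473 FPKM in the library labelled DKO and 3.95 FPKM in that labelled f/f. Cartilage and bone markers summed to 33.0 FPKM at D20 in the library labelled DKO against 17.3 FPKM in that labelled f/f, and to 18.4 against 50.5 FPKM in MEF. Contractile markers summed to 3316 FPKM in the MEF library labelled DKO and 3419 FPKM in that labelled f/f.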
